A study of Saccharomyces cerevisiae with 12 samples.

Results

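Promoter accessibility was described for 10 genes of sulfate assimilation and methionine metabolism in Saccharomyces cerevisiae, namely MET3, MET14, MET16, MET5, MET10, MET2, MET6, SAM1, SAM2 and CYS3. They were taken by name as a fixed list that was chosen with earlier results of these data known. All 10 were found among the 6002 protein-coding genes with a position in the RefSeq table of the R64 assembly. The promoter of a gene was the window that starts 500 bp before its annotated start and ends 100 bp after it. It was counted as open in a library when the summit of a deposited ATAC-seq peak lay in it. ATAC-seq uses the Tn5 transposase to cut and tag DNA that is not covered by nucleosomes or other proteins.

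The 12 libraries came from BY4741, a haploid laboratory strain, with 3 libraries in each of 4 groups. HPRT1 YAC and HPRT1R YAC strains held the synthetic synHPRT1 or synHPRT1R sequence on a yeast artificial chromosome and grew in SC-Leu, a defined medium without leucine. HPRT1 integrated and HPRT1R integrated strains held the same sequences on chromosome XI and grew in YPD, a rich medium of yeast extract, peptone and glucose. Construct format and medium therefore differed together, and their effects cannot be told apart in any comparison of YAC with integrated libraries. All groups grew at 30 °C for 6 h after dilution to an OD of 0.1 and were taken near an OD of 0.6. BY4741 carries deletions of HIS3, LEU2, URA3 and MET17 (also called MET15), so every group lacked O-acetylhomoserine sulfhydrylase and needs organic sulfur. The labels give neither the methionine content of the media nor whether replicates were separate isolates or cultures. P-values then measure only the spread between these libraries.

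Yeast takes up sulfate, activates it with ATP, reduces it to sulfite and then to sulfide, and joins the sulfide to a carbon chain made from homoserine. The product, homocysteine, is methylated to methionine or converted to cysteine, and methionine is the source of S-adenosylmethionine, the main methyl donor of the cell. Transcription of most of these genes is driven by the activator Met4, which is brought to promoters by Cbf1 and by Met31 or Met32, and is held in check by the ubiquitin ligase subunit Met30 when methionine or cysteine is plentiful.

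Each library had 982 to 1343 listed peaks, and 913 to 1303 of them were on the 16 nuclear chromosomes. The construct contig in each list had the name of the labelled construct in 12 of 12 libraries. The library-wide background, recovered from the deposited values, was 4.97 to 6.93 reads. Near that background the weakest listed peak of a library had 13 to 16 reads at its summit and a fold enrichment of 2.14 to 2.32. A promoter without a peak was therefore one below the caller's threshold, and it is not shown to be closed.

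Of the 10 promoters, 9 were open in at least 1 library and none in all 12, against 37.0% and 3.03% of all protein-coding genes. The median over the 10 genes was 5 open libraries, and the median over all genes was 0. Among 39 further genes of sulfur metabolism, 18 (46.2%) were open in at least 1 library, and the median was also 0. The 10 genes were chosen with earlier results of these data known, so their difference from other genes was not tested. SAM1 was open in 11 libraries, MET14 in 10, MET6 in 9, SAM2 in 6, MET2 and MET5 in 5, CYS3 in 4, MET3 in 3, MET10 in 1 and MET16 in 0. Neighbours in this order differed by at most 3 libraries. The 54 summits in these promoters had a median fold enrichment of 3.41, by the authors' values, against 3.51 for the 11304 summits in all promoters. In this and later totals over all promoters, a summit in the promoters of more than 1 gene was counted for each gene.

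Integrated libraries had a promoter peak at more of the 10 genes on average than YAC libraries, with overlapping ranges. YAC libraries had 2, 7 and 3 open members with HPRT1 and 1, 6 and 3 with HPRT1R. Integrated libraries had 4, 4 and 7 with HPRT1 and 6, 5 and 6 with HPRT1R. The means were 3.67 ± 2.34 on the YAC and 5.33 ± 1.21 when integrated (SD, n = 6 each). As a share of the list these were 36.7% ± 23.4 and 53.3% ± 12.1. All genes moved the same way, from 14.3% ± 0.688 to 17.0% ± 2.02, and integrated libraries also had longer nuclear lists (1179 ± 125 peaks against 996 ± 44.9). The part of list length in the difference was tried only by cutting all lists to 913 nuclear peaks, which left means of 3.33 and 4.33.

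**Figure D1:**
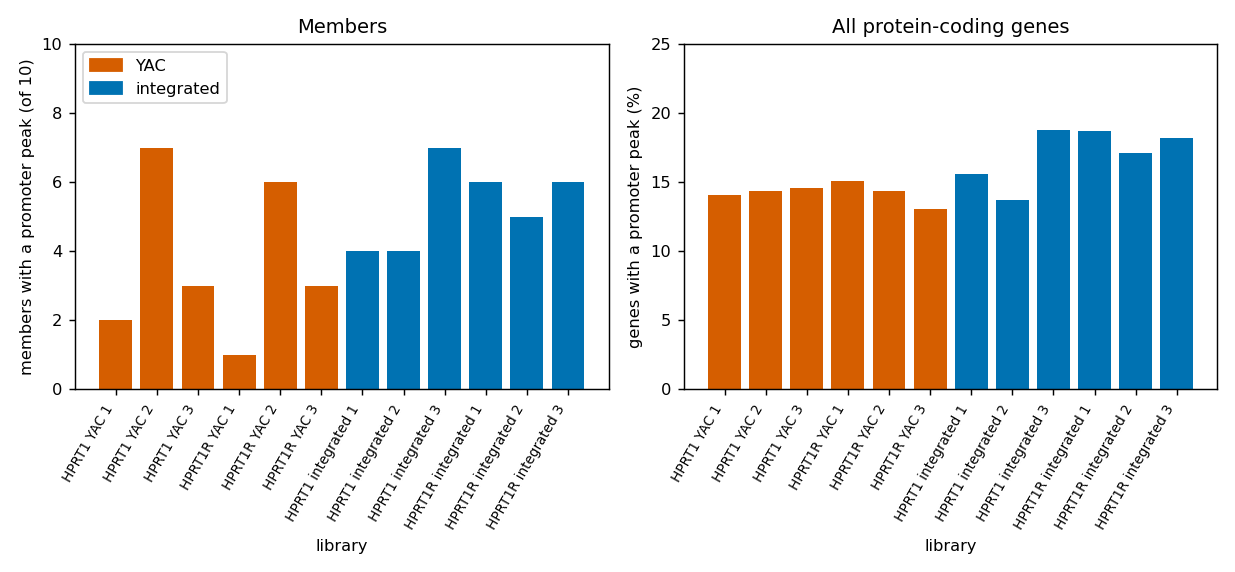
Members with a promoter peak out of 10 (left) and percentage of 6002 protein-coding genes with a promoter peak (right), 1 bar per library, YAC in orange and integrated in blue. The members ranged from 1 to 7 on the YAC and from 4 to 7 when integrated, while all genes ranged from 13.0% to 15.1% and from 13.7% to 18.8%.

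No member passed the test of YAC against integrated libraries. Over the 2040 genes open in 1 to 11 libraries, Fisher's exact test with Benjamini-Hochberg adjustment called 0 genes (0%) at an adjusted p of 0.05, and 11 genes had an unadjusted p under 0.05. An exact permutation test within constructs, whose smallest possible p is larger than that of Fisher's exact test, also called 0. With 6 libraries against 6 the smallest unadjusted p of Fisher's exact test is 0.00216. At least 89 genes would have had to reach it for any to pass. The 0 of either test therefore does not show that promoters were alike. Of the 9 members tested, 7 were open in more integrated libraries, 1 in more YAC libraries and 1 in equal numbers. Among all genes tested, 54.5% were open in more integrated and 28.5% in more YAC libraries, and the median difference was -1 library both there and in the list. A difference of at least 3 libraries towards integrated was seen for 1 of 9 members, MET3, against 8.24% of all genes tested. Towards YAC it was seen for 0 members, against 2.06%. The counts at 3 or more libraries are near the background. The 7 of 9 members (77.8%) open in more integrated libraries are a larger share than the 54.5% of all genes tested, and that difference was not tested.

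**Figure D2:**
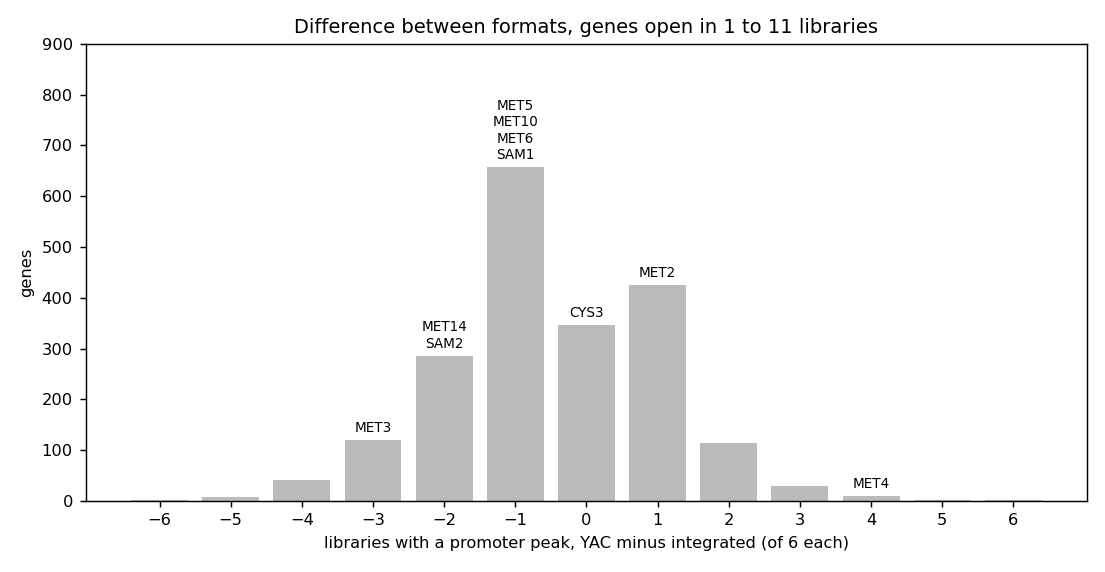
Number of genes (bars) by the difference in open libraries, YAC minus integrated out of 6 each, for the 2040 genes tested, with the 9 tested members and MET4 named above their bars. The members lie between -3 (MET3) and 1 (MET2), where most genes lie, and MET4 lies at 4.

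The first 3 enzymes of the pathway activate and reduce sulfate, and their promoters had different patterns. MET3 (YJR010W, chromosome X, 456239 to 457774) encodes ATP sulfurylase, which joins sulfate to ATP. Its promoter was open in 0 of 6 YAC and 3 of 6 integrated libraries (unadjusted p = 0.182, adjusted p = 1, Fisher's exact test). The fold enrichment was 4.31 in HPRT1 integrated replicate 1, 7.08 in HPRT1 integrated replicate 3 and 5.30 in HPRT1R integrated replicate 1. Among all nuclear peaks of their own library these stood at percentiles 79.9, 98.3 and 88.1. The summits lay at -405, -404 and -397 bp (negative positions are upstream of the gene start), within 8 bp of each other, and the recovered pileups were 33, 51 and 33 reads. The peaks were 173, 153 and 168 bp wide, against a median of 285 bp for peaks with a summit in any promoter. The 3 other integrated libraries held no peak there, so within constructs the counts were 0 against 2 of 3 for HPRT1 and 0 against 1 of 3 for HPRT1R.

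The gene upstream of MET3 is TDH2, a divergent gene for glyceraldehyde-3-phosphate dehydrogenase, and 1557 bp separate the gene starts. The TDH2 side of this interval held a peak in all 12 libraries, with a fold enrichment of 3.37 to 4.83 on the YAC (median 3.68) and 3.69 to 5.36 when integrated (median 4.48). The promoter windows of MET3 and TDH2 do not overlap at this distance, so no summit could fall in both. In the 3 integrated libraries with a MET3-side peak, it was listed apart from the TDH2-side peak. Only the TDH2-side peak was found in the 6 YAC libraries.

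**Figure D3:**
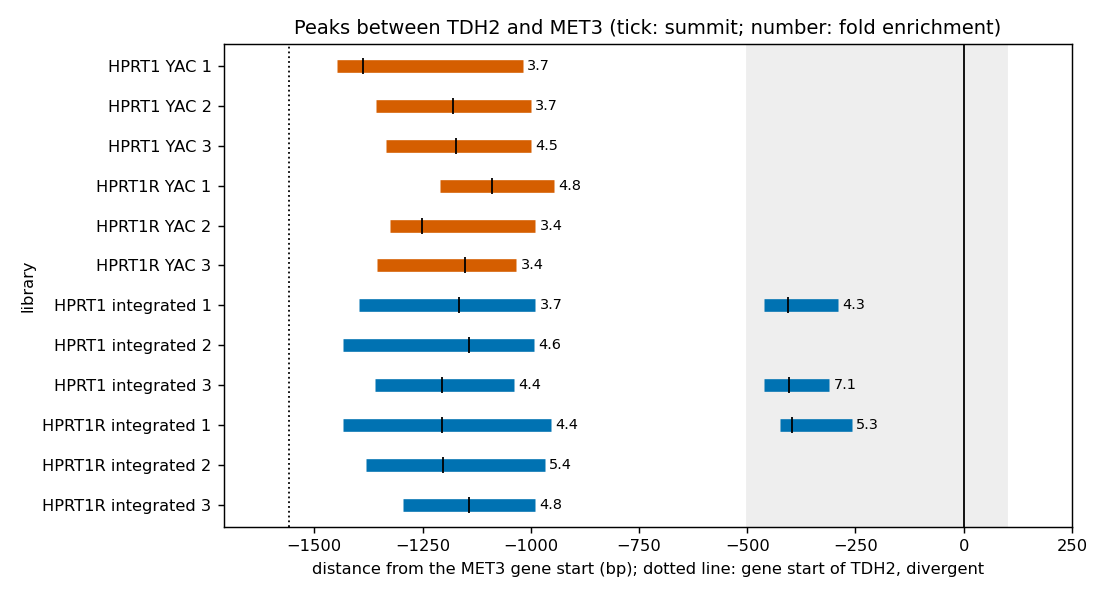
Peaks between TDH2 and MET3 in each library, as distance in bp from the MET3 gene start (horizontal) against library (vertical), with YAC in orange, integrated in blue, a tick at each summit, the fold enrichment beside each peak and the promoter window in grey. All 12 libraries have the TDH2-side peak, and 3 integrated libraries also have a narrow peak near -400 bp.

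MET14 (YKL001C, chromosome XI, 438777 to 439385) encodes adenylylsulfate kinase, the second step, and lies next to the centromere of the chromosome that carries the integrated constructs. The labels do not give the site of integration. Its promoter was open in 4 YAC and 6 integrated libraries (adjusted p = 1, Fisher's exact test). On the HPRT1 YAC the fold enrichment was 3.11, 3.78 and 4.84, and of the HPRT1R YAC libraries only replicate 3 had a peak, at 4.73. Integrated HPRT1 libraries had 4.94, 2.86 and 2.34, and integrated HPRT1R libraries 3.43, 3.68 and 3.58. Among the nuclear peaks of their own library, the MET14 peaks of integrated HPRT1 replicates 1 and 3 stood at percentiles 91.1 and 1.53. Its summits had a median position of -292.5 bp and ranged from -478 to -210 bp.

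MET16 (YPR167C, chromosome XVI, 876847 to 877632) encodes the reductase that releases sulfite from activated sulfate. No library held a peak in its promoter, which faces the divergent gene NUT2 across 443 bp. NUT2, which encodes a Mediator subunit, also had no promoter peak in any of the 12 libraries.

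Sulfite reductase, which makes sulfide, is built from the products of MET5 and MET10. The promoter of MET5 (YJR137C, chromosome X, 678957 to 683285) was open in 2 YAC and 3 integrated libraries (adjusted p = 1, Fisher's exact test). Its fold enrichment was 3.03 and 2.93 in replicate 2 of the HPRT1 YAC and HPRT1R YAC groups. Integrated HPRT1 replicate 2 had 2.86, and integrated HPRT1R replicates 1 and 3 had 2.96 and 3.27. All 5 values lay in the lower part of their lists, at percentiles 16.2 to 35.8, and the formats overlapped. MET10 (YFR030W, chromosome VI, 213312 to 216419) had a promoter peak in 1 library, HPRT1 integrated replicate 3. That peak was strong and narrow, with a fold enrichment of 5.56, 37 reads at a summit at -206 bp, and a width of 138 bp near the 131 bp of the narrowest nuclear peak of that library. The same library also had a MET3 promoter peak, and it had the longest nuclear list. With no second library, the MET10 value has no replicate check.

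**Figure D4:**
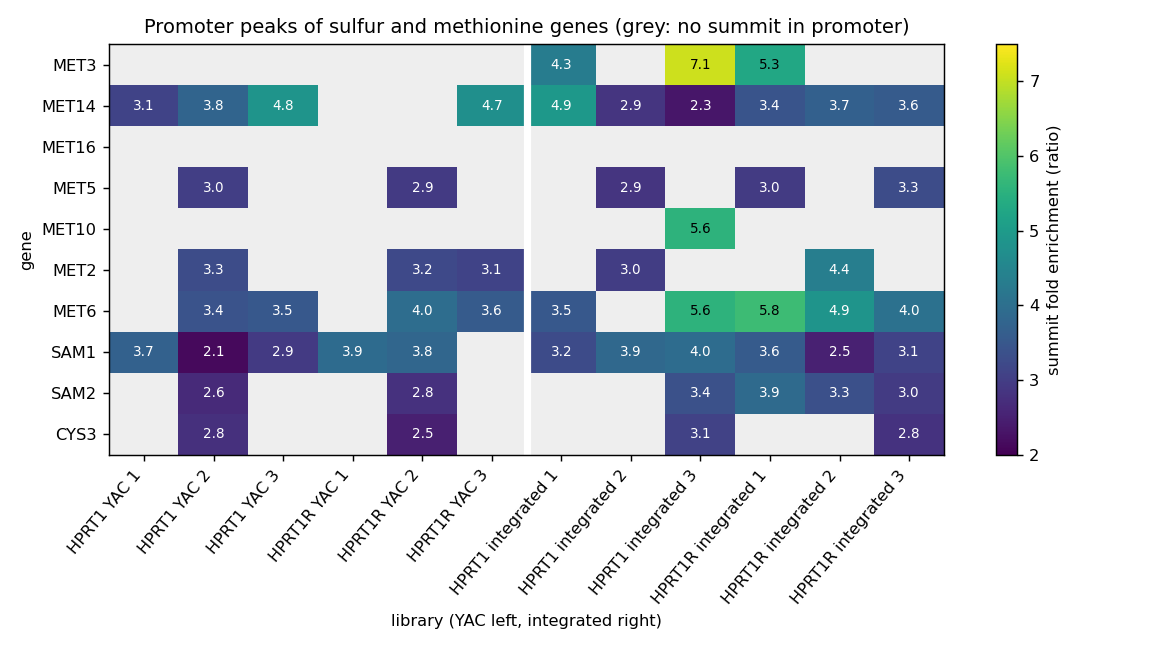
Fold enrichment at the summit (colour and number, a ratio to local background) for each member gene (rows, in pathway order) and library (columns, YAC left and integrated right), with grey where no summit lay in the promoter. MET3 is grey in all 6 YAC libraries, MET16 in all 12, and MET5, SAM2 and CYS3 are coloured on the YAC only in replicate 2 of each construct.

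MET2 and MET6 act on the carbon side of the pathway. MET2 (YNL277W, chromosome XIV, 117349 to 118809) encodes homoserine O-acetyltransferase, which prepares the acceptor of sulfide. It was open in 3 YAC libraries, with a fold enrichment of 3.28, 3.22 and 3.10, and in 2 integrated libraries, with 3.00 and 4.35 (adjusted p = 1, Fisher's exact test). The direction of this difference depended on the window, since in 5 further libraries a summit lay just outside it, at -518 to -556 bp. The upstream gene YNL277W-A runs in the same direction and ends 481 bp before MET2. These 5 summits lay within that gene, as did the summit at -486 bp counted as open in HPRT1R integrated replicate 2. With 1000 bp upstream, a window that takes in all of YNL277W-A, MET2 was open in 4 YAC and 6 integrated libraries. The members' farthest summit inside the window was at -499 bp, and 3 MET6 summits and 1 MET5 summit also lay within 150 bp outside it.

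MET6 (YER091C, chromosome V, 339864 to 342167) encodes the cobalamin-independent methionine synthase. It was open in 4 YAC and 5 integrated libraries (adjusted p = 1, Fisher's exact test), and with 1000 bp upstream in all 12. Over the promoter window the fold enrichment was 3.40 to 3.96 in YAC libraries, with a median of 3.55. It was 3.51 to 5.76 in integrated libraries, with a median of 4.86. As percentiles of their own lists these peaks stood at 45.3 to 62.5 and at 50.7 to 93.1, so the formats overlapped. Integrated libraries had 3 MET6 summits with a -log10 q of at least 10, and YAC libraries had none. The interval is shared with the divergent gene IES5, a subunit gene of the INO80 chromatin remodeler, and all 9 MET6 summits also lay in the IES5 promoter. IES5 was open in all 12 libraries, so a peak of this interval belongs to either gene. EDC1, which encodes an activator of mRNA decapping, had the same open and not open libraries as MET6 over all 12. No other protein-coding gene shared the 12-library pattern of MET6, and none shared that of MET2, MET3, MET5, SAM2 or CYS3.

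**Figure D5:**
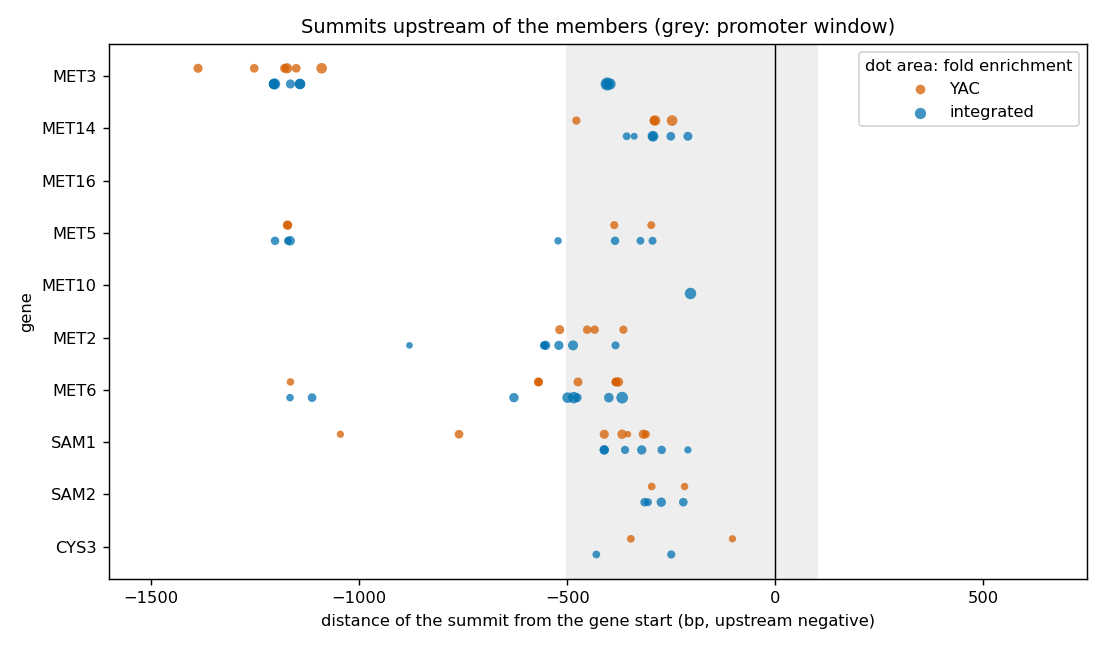
Position of each summit in bp from the gene start (horizontal, upstream negative) for each member gene (rows), with YAC in orange, integrated in blue, dot area growing with fold enrichment and the promoter window in grey. The MET3 summits inside the window lie near -400 bp, and 12 others lie at -1387 to -1090 bp, on the TDH2 side. Summits of MET2 and MET6 lie on both sides of the -500 bp edge, and MET5 and SAM1 also have summits beyond it.

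SAM1 and SAM2 encode paralogous S-adenosylmethionine synthetases. SAM1 (YLR180W, chromosome XII, 515262 to 516410) was open in 5 YAC and 6 integrated libraries (adjusted p = 1, Fisher's exact test). Its fold enrichment was 2.14 to 3.92 on the YAC (median 3.70) and 2.51 to 3.95 when integrated (median 3.42). The ranges overlapped. The library without a SAM1 promoter peak, HPRT1R YAC replicate 3, had the shortest nuclear list. It had a summit farther upstream, at -760 bp, within the divergent gene YLR179C. All 11 summits in the SAM1 promoter also lay in the promoter of YLR179C.

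SAM2 (YDR502C, chromosome IV, 1453310 to 1454464) was open in 2 YAC and 4 integrated libraries (unadjusted p = 0.567, adjusted p = 1, Fisher's exact test). The fold enrichment was 2.65 and 2.78 on the YAC. It was 3.37 in HPRT1 integrated replicate 3 and 3.89, 3.35 and 2.96 in the 3 integrated HPRT1R libraries. As percentiles of their own lists the YAC peaks stood at 14.1 and 15.0 and the integrated ones at 23.1 to 56.1, a difference that was not tested. The widths were 129 to 249 bp, and 4 of the 6 peaks were at most 142 bp wide. The upstream gene LPP1 runs in the same direction, and its own promoter held no peak in any library.

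CYS3 (YAL012W, chromosome I, 130799 to 131983) encodes cystathionine gamma-lyase, which forms cysteine. It had 2 open libraries in each format, with a fold enrichment of 2.77 and 2.49 on the YAC and 3.08 and 2.80 when integrated. They had a median percentile of 18.8 among the nuclear peaks of their own libraries, and the summits were spread from -430 to -103 bp.

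Open members were unevenly spread over the YAC libraries. MET5, SAM2 and CYS3 were open on the YAC only in replicate 2 of HPRT1 and replicate 2 of HPRT1R, and MET2 was open in these and in HPRT1R YAC replicate 3. These 2 libraries had 7 and 6 open members, and the 4 other YAC libraries had 1 to 3. Their share of all genes open was 14.4% each, within the range of the YAC libraries of 13.0% to 15.1%. HPRT1 YAC replicate 2 had the highest library-wide background of all 12 libraries, 6.93 reads, and HPRT1R YAC replicate 2 had 5.82. A difference between libraries chosen for their counts was not tested.

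Among strong summits, with a -log10 q of at least 10, 8 of the 9 in the members' promoters came from integrated libraries. They were 3 at MET3, 3 at MET6, 1 at MET10 and 1 at MET14, and the YAC one was at MET14. In all promoters, counted per gene, 68.6% of the 1794 strong summits were from integrated libraries. Strong summits made up 10.9% of promoter summits on the YAC and 19.99% when integrated. The members' strong summits made up 16.7% of their 54, against 15.9% in all promoters. By format they were 1 of 22 on the YAC and 8 of 32 when integrated. Differences from all promoters were not tested.

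Libraries with HPRT1R and with HPRT1 were also compared, with both formats and media equally represented on each side. Of the 9 members tested, 4 were open in more HPRT1R and 4 in more HPRT1 libraries, beside 911 and 733 of all 2040 genes tested. The largest differences were 2 libraries, for MET14 (4 HPRT1R and 6 HPRT1) and SAM2 (4 and 2), with an adjusted p of 1 for every member in Fisher's exact test. Over all 2040 genes 0 (0%) passed the adjusted p, and 1 had an unadjusted p under 0.05.

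Of 39 further genes of sulfur metabolism, 18 (46.2%) were open in at least 1 library and 21 in none. Of all protein-coding genes, 37.0% were open in at least 1. The library means were 18.8% ± 3.5 of these genes on the YAC and 20.1% ± 4.70 when integrated (SD, n = 6 each). Those of all protein-coding genes were 14.3% and 17.0%. Of the 16 open in some but not all libraries, 9 (56.25%) were open in more integrated and 4 (25%) in more YAC libraries. These shares are near the 54.5% and 28.5% of all genes tested, and none of the 16 passed Fisher's exact test. MET28, a partner of Met4 at promoters, and ADO1, which encodes adenosine kinase, were open in all 12 libraries. Both share an interval with a divergent gene, YAP5 and SOD1, whose promoters held the same summits. GSH1, for the first enzyme of glutathione synthesis, was open in 4 YAC and 6 integrated libraries, and 2 of its summits were shared with the divergent gene LSB6. The methionine permease gene MUP1 and the S-adenosylmethionine permease gene SAM3 each had 4 and 5. The promoters of CBF1, MET31, MET32 and the sulfate permease gene SUL1 held no peak in any library. MET30 and SUL2, also a sulfate permease gene, were each open in 2 YAC and 2 integrated libraries. The SUL2 peaks were weak, with a fold enrichment of 2.18 to 2.93 at percentiles 0.64 to 20.5 of their own lists. The MET30 peaks had 2.72 to 3.89, at percentiles 9.16 to 57.7. The MET17 promoter held no peak in any library either, and its coding gene is deleted in BY4741, so no reading is drawn from it.

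MET4 (YNL103W, chromosome XIV, 427735 to 429753), the gene for the activator of the pathway, had the largest difference of the further genes. It was open in 6 YAC and 2 integrated libraries (unadjusted p = 0.0606, adjusted p = 1, Fisher's exact test), opposite in sign to MET3. The interval between MET4 and the divergent gene LEU4 held a peak in all 12 libraries, however. Its summits lay at -496 to -371 bp on the YAC and at -615 to -203 bp when integrated, so the 4 integrated libraries counted as not open had their summit beyond the -500 bp edge. The MET4 count therefore describes where the summit lay and not whether the interval had a peak.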

How the data were processed

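The sources were 12 lists of ATAC-seq peaks, 1 per library. Per the submitters' processing notes, tools included Bowtie2 2.2.9, SAMtools 1.9 and MACS2 2.1.0, with the build sacCer3. For calling options, duplicates and reads that match several places, the treatment was not stated in the labels. The deposited fold enrichment is a linear ratio of summit pileup to local background, and the deposited -log10 values are of the p-value and q-value, all as written by the authors' caller. The score column, also deposited, was left out. Folds were ranked within a list and tested between no groups. Folds of different libraries are set side by side as description only, since background differs between libraries. Read totals are unknown.

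Gene positions came from the RefSeq R64 table (the sequence of sacCer3), with strand from systematic names. No genome sequence was used. Summit pileups and backgrounds were recovered from fold and p-value, assuming a Poisson p-value and a pseudocount of 1, to within 0.01 of the deposited -log10 p for 99.9% of 13746 peaks. Presence per gene was tested across all genes open in 1 to 11 libraries with two-sided Fisher's exact tests and Benjamini-Hochberg adjustment (Python 3.11.15, SciPy 1.17.1). The tests were also run on simulated data with near-complete differences between formats. That setting does not show whether smaller differences would be called. Members and lists were chosen with earlier results of these data known. All members are named. Of the other sulfur genes, those open in at least 9 libraries or differing by at least 3 between formats are named. CBF1, MET30, MET31, MET32, SUL1, SUL2 and MET17 were named after their values were seen. For members open in 3 to 9 libraries, genes with the member's exact 12-library pattern are named when 5 or fewer. The other members were not searched for genes alike. Other windows, peak thresholds, list lengths, gene filters, tests and left-out libraries were tried.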

Additional observations from a re-analysis of the deposited data

How the results depend on the processing

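The test across all genes called 0 genes in both comparisons under all 22 alternatives, the replicate block (0 called) included. At an unadjusted p under 0.05 it gave 11 genes for YAC against integrated, with a range of 8 to 26 (26 without HPRT1 YAC replicate 3), and 1 for HPRT1R against HPRT1, with a range of 1 to 13 (13 without HPRT1 integrated replicate 3). A count of 0 at this number of libraries says nothing about stability. Deviations of same-numbered libraries correlated across genes at -0.0545 to 0.0188 over 6 pairs between formats. Over 6 pairs between constructs they correlated at -0.000734 to 0.0199. Libraries with different numbers had -0.0402 to 0.0458 between formats and -0.0204 to 0.0174 between constructs. Such values cannot decide whether the replicate numbers pair the libraries. The mean of open members was lower on the YAC under all 18 alternatives, by -2.33 to -0.67, and by -2.33 to -1.13 when each library was left out. MET2 changed direction to -33.3 points with 1000 bp upstream and, at -33.3 points, with any overlap of a peak, because its summits lie at the edge of the window. With 300 bp upstream most member peaks were lost (means of 1.17 open members on the YAC and 1.83 integrated). MET2, MET3 and MET6 were then open in no library, and SAM1 in 0 YAC and 2 integrated. CYS3, equal at 2 and 2, was open in 1 YAC and 0 integrated libraries at equal list length and in 0 and 1 at a fold of at least 3. At that fold MET14 was equal at 4 and 4, and SAM2 was open in 0 and 3. The median fold of member summits was 5.30 when only peaks with a -log10 q of at least 10 were kept, by construction, and 3.36 to 3.52 when a library was left out. Presence in 6 libraries against 6 limits every comparison, and a gene below the caller's threshold has no value.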

Other observations

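No member had a summit within its gene body past the promoter window or within 1500 bp after its end, in any library. The interval upstream of MET5 held a second summit near the divergent gene IML1, at -1202 to -1166 bp, in 2 YAC and 3 integrated libraries, with a fold enrichment of 2.96 to 4.10. It occurred together with the MET5 promoter peak in 2 libraries.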
